A study of Mus musculus with 13 samples.

Results

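Colony-stimulating factor signalling was examined through 7 genes, chosen by name as the ligands and receptors of the family: Csf1 and Il34, the ligands; Csf1r, their shared receptor; and the cytokine receptor chains Csf2ra, Csf2rb, Csf2rb2 and Csf3r. All 7 were found among the 52636 genes listed for each mouse. These genes and the gene lists used below were chosen with earlier results of these data known. The cells were brain-resident myeloid cells of PS2APP mice, sorted as CD11b+ CD45+ and negative for Ly6g and Ccr2 from pooled cortex and hippocampus at 14 to 15 months of age. The PS2APP model expresses transgenes for human amyloid precursor protein and presenilin 2 and forms plaques of β-amyloid, and every mouse of both groups carried these transgenes. The comparison asked what deletion of Trem2, a lipid-sensing receptor of microglia, does to these cells. There were 7 mice in the PS2APP;Trem2wt group, of which 5 were female and 2 male, and 6 in the PS2APP;Trem2ko group, of which 5 were female and 1 male and which carried the Trem2tm1(KOMP)Vlcg null allele, each mouse being 1 sample. The null allele came from a C57BL/6N background and was crossed into PS2APP on C57BL/6J. Nontransgenic mice were not analysed here, so the values describe plaque-bearing brains only, and the sort gate retains some perivascular macrophages beside the microglia.

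CSF1R is a receptor tyrosine kinase on which microglia depend for survival and proliferation. CSF1 and IL-34 bind it as alternative ligands, and in the brain IL-34 is made largely by neurons. The other receptor chains belong to the cytokine receptor family, which signals through JAK kinases and STAT factors: CSF2RA is the GM-CSF-binding chain, CSF2RB is the signalling chain shared by the receptors for GM-CSF, IL-3 and IL-5, CSF2RB2 is a mouse chain that pairs with the IL-3 receptor, and CSF3R is the receptor for G-CSF.

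The level of a gene is given as nRPKM, a read density per length of gene and per depth that the authors adjusted by a size factor and deposited, which lets genes be compared per length. Genotypes were compared on the read counts with edgeR's quasi-likelihood test, a gene being called at an adjusted p (Benjamini-Hochberg over all 17086 genes tested) of 0.05 or less. A log2 fold change is PS2APP;Trem2ko over PS2APP;Trem2wt, so a negative value is a lower level without Trem2. Total counts were between 26120961 and 120569609 per mouse. Trem2 itself was at 818 to 1244 nRPKM in the 7 PS2APP;Trem2wt mice and at 0.393 to 2.29 in the 6 PS2APP;Trem2ko mice. Microglial markers (10 genes, summed) were at 13700 to 17180 nRPKM in PS2APP;Trem2wt and 14430 to 16010 in PS2APP;Trem2ko mice. In none of the 9 cell type marker lists did the sum differ between genotypes at an adjusted p of 0.05 or less (exact permutation test), with the lowest adjusted p, 0.514, for the astrocyte list. Of the genes of these 9 lists, 1 was called, the microglial marker Cx3cr1, the fractalkine receptor, with a log2 fold change of -0.49 (SE 0.09, edgeR adjusted p = 0.00670). Over all genes tested, 1.53% were called lower.

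Csf1 was the member that changed. Its mRNA was about 2-fold lower in PS2APP;Trem2ko cells, with every PS2APP;Trem2ko mouse below every PS2APP;Trem2wt mouse. The genes for its receptor, for its alternative ligand and for the other receptor chains were not called. Thus 1 of the 7 members was called lower and 0 higher, where 1.53% of all genes tested were called lower and 2.04% were called in either direction. The median log2 fold change was 0.02 over the 7 members and 0.0039 over all genes tested. Besides Csf1, only Csf2ra had an unadjusted p of 0.05 or less in edgeR, and it was not called.

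**Figure D1:**
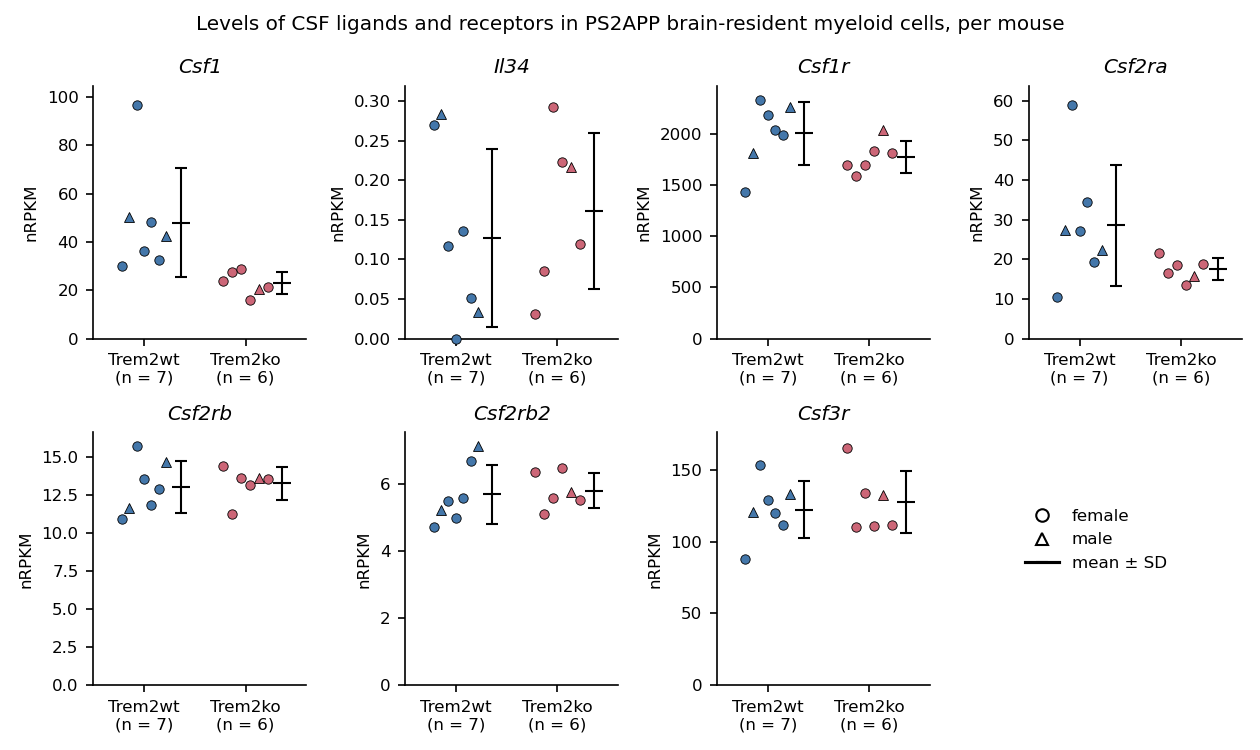
Level in nRPKM (vertical axes, from 0) of the 7 genes in each PS2APP;Trem2wt mouse (blue) and PS2APP;Trem2ko mouse (red), with females as circles and males as triangles; the bar beside each group is its mean with the SD. The Csf1 values of the 6 PS2APP;Trem2ko mice, 16.1 to 28.65, lie below the lowest PS2APP;Trem2wt value of 30.1, whereas the genotypes overlap in the other panels.

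The members spanned a wide range of levels, in the same order in both genotypes: Csf1r highest, then Csf3r, Csf1, Csf2ra, Csf2rb, Csf2rb2 and Il34. In PS2APP;Trem2wt cells, Csf1r ranked 13 of all genes by mean nRPKM, and its mean was 16.4 times that of the next member, Csf3r. Each member was above the next in all 13 mice, except that Csf2ra was above Csf2rb in 12. Csf2rb2 was 44.6 times above Il34 in PS2APP;Trem2wt cells and 35.9 times in PS2APP;Trem2ko cells, by their means. Csf1 and Csf2ra were close in PS2APP;Trem2ko cells, with a ratio of means of 1.32, and Csf2ra and Csf2rb were equally close there, with a ratio of 1.32. The distance from Csf3r to Csf1 was 2.54 in the ratio of means in PS2APP;Trem2wt cells and 5.54 in PS2APP;Trem2ko cells.

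Csf1 (ENSMUSG00000014599) lies on chromosome 3 of GRCm38, from 107741048 to 107760469 on the minus strand, and encodes macrophage colony-stimulating factor. Its nRPKM was 30.1 at the lowest, 42.3 at the median and 96.6 at the highest in the 7 PS2APP;Trem2wt mice, and 16.1, 22.6 and 28.65 in the 6 PS2APP;Trem2ko mice. The groups did not overlap, a separation in this direction that 1.22% of all genes tested showed. The means were 48.05 ± 22.7 (SD, n = 7) and 23.0 ± 4.66 (SD, n = 6). The log2 fold change was -1.07 (SE 0.24, 95% confidence interval -1.57 to -0.56, edgeR adjusted p = 0.0298), which is a change of -52.2%. By its p-value Csf1 stood at rank 231 among the 348 genes called.

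PS2APP;Trem2wt mouse 3 stood apart at 96.6 nRPKM, where the next was at 50.3, and without it the log2 fold change of Csf1 was -0.80 (edgeR adjusted p = 0.0138), smaller than 2-fold. The mean was lower without Trem2 in both sexes, at 48.7 and 23.5 nRPKM in females, and at 46.3 in the 2 PS2APP;Trem2wt males against 20.6 in the single PS2APP;Trem2ko male. In females alone the log2 fold change was -1.06 and the call was lost (edgeR adjusted p = 0.110). When each mouse was left out in turn, the log2 fold change ranged from -1.15 to -0.80 and the adjusted p from 0.0138 to 0.0675 in edgeR, with the call kept in 7 of 13 fits. It was lost without PS2APP;Trem2wt mouse 2 or 5 and without PS2APP;Trem2ko mouse 1, 4, 5 or 6. Csf1 shares no 50-base stretch with the transcripts of another gene, so its reads are not ambiguous by that measure. In bulk cells, less Csf1 mRNA per cell and fewer cells that express Csf1 cannot be told apart.

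**Figure D2:**
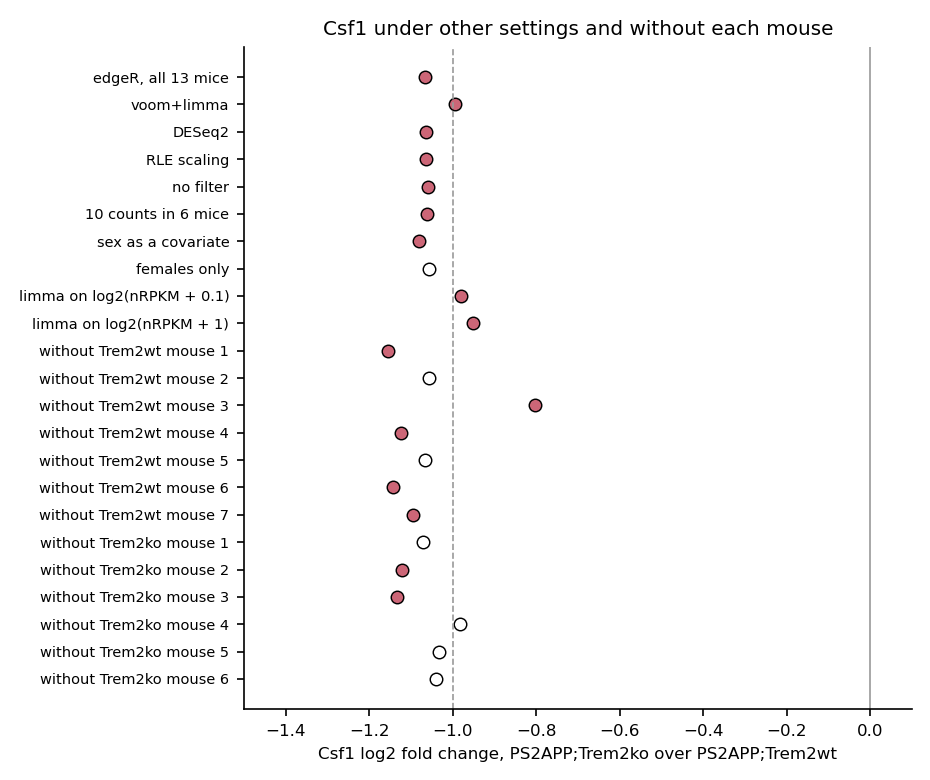
Log2 fold change of Csf1 (horizontal axis) from edgeR over all 13 mice, under each alternative setting, and without each mouse; filled points have an adjusted p of 0.05 or less, and the dashed line marks a 2-fold decrease. All points lie between -1.15 and -0.80, and the call is lost in females only and without each of 6 mice.

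The 250 bases before the annotated start of Csf1 are shown because Csf1 was the member that changed. They were taken from RefSeq at chr3:107760470-107760719 (GRCm38.p6, minus strand), where such a sequence was given for 4 of the 7 members, and are printed 5′ to 3′ with capitals marking the GC box GGGCGG on either strand.
Csf1 upstream: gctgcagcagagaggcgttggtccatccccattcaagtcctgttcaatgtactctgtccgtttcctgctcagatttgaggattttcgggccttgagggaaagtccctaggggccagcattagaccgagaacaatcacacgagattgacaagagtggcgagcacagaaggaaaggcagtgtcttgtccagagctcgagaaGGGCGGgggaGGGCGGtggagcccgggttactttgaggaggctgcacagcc
The GC box occurred at positions -51 and -41 from the start, and 32.7% of the 32851 upstream sequences of the same length hold it. Neither the ETS motif GGAAGT, nor the AP-1 motif TGANTCA, nor the STAT motif TTCNNNGAA was present on either strand in this window, and 19.7%, 6.75% and 7.02% of all such sequences hold them. Its GC content was 56.4%, against a median of 52.4%. These matches describe letters only, no binding was measured, and the GC box was added to the motifs after the sequence had been seen.

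Csf1r (ENSMUSG00000024621, chromosome 18, 61100598 to 61132149, plus strand) was among the most abundant transcripts of these cells. Its nRPKM was 1429, 2036 and 2324 at the lowest, median and highest in PS2APP;Trem2wt mice and 1586, 1752 and 2030 in PS2APP;Trem2ko mice. The lowest value of all belonged to a PS2APP;Trem2wt mouse, yet 4 of the 7 PS2APP;Trem2wt mice were above every PS2APP;Trem2ko mouse. The means were 2001 ± 308 (SD, n = 7) and 1773 ± 154 (SD, n = 6). This was a log2 fold change of -0.18 (SE 0.10, 95% confidence interval -0.39 to 0.04, edgeR adjusted p = 0.437), an interval that runs from -23.7% to 2.50% in the level. The end of Csf1r overlaps the gene Hmgxb3 on the opposite strand, 14.3% of its 50-base stretches occur in Hmgxb3 transcripts, and reads there cannot be assigned without strand. Hmgxb3 itself was at 5.71 to 8.12 nRPKM in all 13 mice.

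Il34 (ENSMUSG00000031750, chromosome 8, 110741829 to 110805924, minus strand) was barely detected in the sorted cells. It had between 0 and 66 counts per mouse and 261 in all 13 mice. Its nRPKM was 0, 0.117 and 0.284 at the lowest, median and highest in PS2APP;Trem2wt mice and 0.0307, 0.1685 and 0.293 in PS2APP;Trem2ko mice. The groups overlapped almost entirely. The mouse with 0 counts, PS2APP;Trem2wt mouse 4, allows a level of up to 0.109 CPM (3 counts, counting error only). No difference in Il34 was detected. The parts of depth and of spread between mice in this were not tested. The log2 fold change of 0.35 (SE 0.68, edgeR adjusted p = 0.866) had a wide 95% confidence interval, from -1.09 to 1.79. Leaving out each mouse moved this log2 fold change between 0.099 (without PS2APP;Trem2ko mouse 3) and 0.65 (without PS2APP;Trem2wt mouse 2).

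Since ligand and receptor were measured in the same bulk sample of sorted cells, their ratio was taken within each mouse. Csf1 mRNA relative to Csf1r mRNA was 0.0165 at the lowest, 0.0211 at the median and 0.0416 at the highest in PS2APP;Trem2wt mice, and 0.00888, 0.0130 and 0.0174 in PS2APP;Trem2ko mice. At the median there were 47.3 receptor transcripts per ligand transcript with Trem2 and 77.6 without it, per length. In 4 of the 6 PS2APP;Trem2ko mice the ratio lay under the whole PS2APP;Trem2wt range. The difference on the log2 scale was -0.82 (two-sided exact permutation test, all splits, p = 0.00699, adjusted p = 0.0280 over 4 ratios), and 7 of the 13 leave-one-out tests kept an adjusted p of 0.05 or less. By the same exact permutation test, the adjusted p was 0.0519 without PS2APP;Trem2wt mouse 3, with a difference of -0.67, and 0.127 in females only, with -0.74. Csf1 is the numerator of this ratio and Csf1r was not called, so the ratio is not a result separate from that of Csf1.

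The ratio of Il34 to Csf1, computed with 0.1 added to each value, was higher in PS2APP;Trem2ko mice by 1.24 on the log2 scale (exact permutation test, p = 0.0233, adjusted p = 0.0466). In 3 of the 6 PS2APP;Trem2ko mice it was above every PS2APP;Trem2wt mouse. Csf1 is the denominator here and Il34 lies near the limit of detection, so this is not a result separate from that of Csf1. Its adjusted p was 0.127 in females only and 0.0808 with CPM in place of nRPKM, and it stayed at 0.05 or less in 4 of 13 leave-one-out tests.

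**Figure D3:**
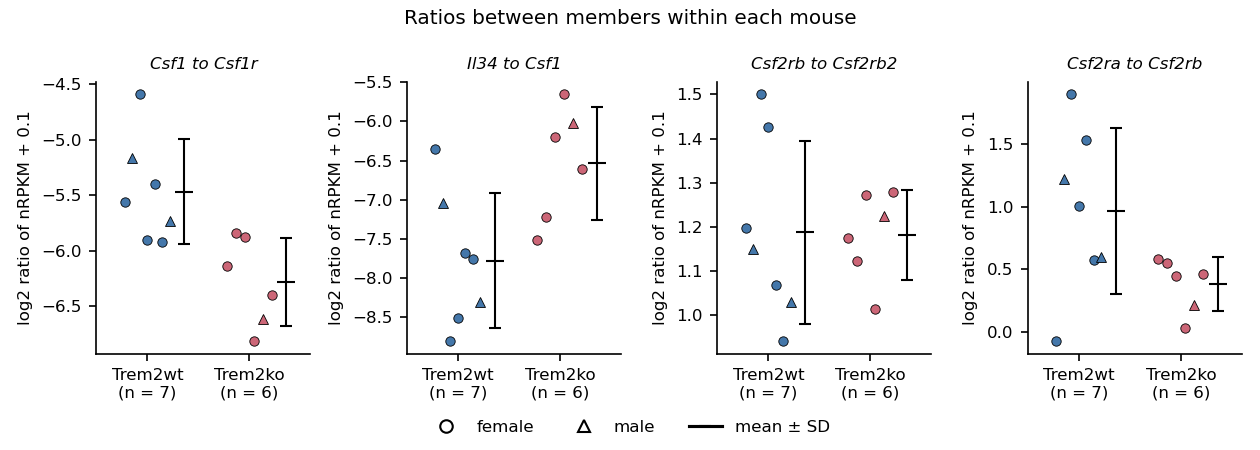
Log2 ratio of nRPKM + 0.1 between pairs of members within each mouse (vertical axes), for PS2APP;Trem2wt (blue) and PS2APP;Trem2ko (red), with females as circles, males as triangles and the mean with the SD beside each group. Csf1 to Csf1r differs by -0.82 between the means, and Csf2rb to Csf2rb2 by -0.01.

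Csf2ra (ENSMUSG00000059326, chromosome 19, 61223957 to 61228429, minus strand), the GM-CSF-binding chain, had the second largest decrease among the members but did not pass the test. Its nRPKM was 10.4, 27.2 and 58.8 at the lowest, median and highest in PS2APP;Trem2wt mice and 13.5, 17.5 and 21.7 in PS2APP;Trem2ko mice. The lowest value was that of PS2APP;Trem2wt mouse 1, the highest that of mouse 3, and 5 of the 7 PS2APP;Trem2wt mice were above every PS2APP;Trem2ko mouse. The means were 28.5 ± 15.3 (SD, n = 7) and 17.5 ± 2.83 (SD, n = 6). In edgeR the log2 fold change was -0.71 (SE 0.28, 95% confidence interval -1.31 to -0.12) with an adjusted p of 0.231 and an unadjusted p of 0.0216. Without mouse 3 it was smallest, at -0.43, and without mouse 1 largest, at -0.86, with no adjusted p under 0.0645 in these fits. Csf1 and Csf2ra were the most variable of the well-detected members among PS2APP;Trem2wt mice, with coefficients of variation of 47.3% and 53.65%.

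The beta chains Csf2rb (ENSMUSG00000071713, chromosome 15, 78325752 to 78353847, plus strand) and Csf2rb2 (ENSMUSG00000071714, chromosome 15, 78282507 to 78305721, minus strand) are neighbours and near copies. Over 2628 aligned coding bases 95.2% were identical, and the longest identical run was 242 bases, which is longer than a read. A window of 90 bases from each coding sequence (bases 301 to 390 of Csf2rb and 304 to 393 of Csf2rb2, GENCODE transcripts) is shown because it holds 15 differing bases, in capitals, by which reads can be assigned.
Csf2rb: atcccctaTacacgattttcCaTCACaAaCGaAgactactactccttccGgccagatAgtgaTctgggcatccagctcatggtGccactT
Csf2rb2: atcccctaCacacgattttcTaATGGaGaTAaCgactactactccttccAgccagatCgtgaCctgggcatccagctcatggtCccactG
Of the 50-base stretches, 12.3% in Csf2rb and 18.4% in Csf2rb2 occur in the other gene, and reads from these cannot be assigned to either, so the levels of both are uncertain to that extent.

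Csf2rb was at 10.95, 12.9 and 15.7 nRPKM at the lowest, median and highest in PS2APP;Trem2wt mice and at 11.25, 13.6 and 14.4 in PS2APP;Trem2ko mice. Csf2rb2 was at 4.72, 5.50 and 7.12 in PS2APP;Trem2wt mice and at 5.11, 5.66 and 6.47 in PS2APP;Trem2ko mice. Both genes overlapped between the genotypes through nearly their whole range. Their log2 fold changes were 0.02 for Csf2rb (SE 0.09, 95% confidence interval -0.17 to 0.21, edgeR adjusted p = 0.948) and 0.02 for Csf2rb2 (SE 0.10, interval -0.19 to 0.24, adjusted p = 0.947). Within a mouse there was 2.22 times as much Csf2rb as Csf2rb2 at the median in PS2APP;Trem2wt mice and 2.30 times in PS2APP;Trem2ko mice (exact permutation test of the log2 ratio, p = 0.949, adjusted p = 0.949). The ratio of Csf2ra to Csf2rb was 2.004 at the median in PS2APP;Trem2wt and 1.37 in PS2APP;Trem2ko mice, a log2 difference of -0.58 that did not pass the exact permutation test (p = 0.0606, adjusted p = 0.0808).

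Csf3r (ENSMUSG00000028859, chromosome 4, 126024550 to 126044440, plus strand), which neutrophils also express, was the second most abundant member. Its nRPKM was 88.1, 120 and 153 at the lowest, median and highest in PS2APP;Trem2wt mice and 110, 122 and 165 in PS2APP;Trem2ko mice. The highest and the lowest mouse were in different groups, and the ranges overlapped. Between the genotypes it had a log2 fold change of 0.06 (SE 0.12, 95% confidence interval -0.20 to 0.31, edgeR adjusted p = 0.883). Of its 50-base stretches, 10.7% occur in other genes. The summed neutrophil markers (9 genes) were at 15.0 to 265 nRPKM in PS2APP;Trem2wt mice and at 0.149 to 46.3 in PS2APP;Trem2ko mice, a log2 difference of -1.88 (exact permutation test, p = 0.159, adjusted p = 0.580), although Ly6g-positive cells were gated out. Without PS2APP;Trem2ko mouse 6 that difference was -0.73. Their part in the Csf3r and Csf1 levels was not tested.

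Among the other ligands and receptor chains of the family (Csf2, Csf3, Il3, Il5, Il3ra, Il5ra, Ptprz1 and Sdc1), 3 of 8 were expressed enough to be tested. Of these, 0 were called, where 2.04% of all genes tested were called in either direction. Il3 and Csf3 had 0 counts in all 13 mice, and Csf2, the gene for GM-CSF, had 11 counts in all. Il3ra, the IL-3-binding chain, was at 0.573, 1.16 and 2.79 nRPKM at the lowest, median and highest in PS2APP;Trem2wt mice and at 0.243, 0.667 and 1.18 in PS2APP;Trem2ko mice. Its log2 fold change was -1.01 (SE 0.37, edgeR adjusted p = 0.202). Ptprz1 and Sdc1, which encode further binding partners of IL-34, were at means under 0.365 nRPKM, with log2 fold changes of 0.12 and -0.27.

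Downstream of CSF1R, 29 of 29 genes were tested, and 3 were called lower and 0 higher, where 1.53% of all genes tested were called lower. The list was chosen with earlier results of these data known, so the 2 shares are not an independent comparison. The median log2 fold change of the 29 was -0.03, and 5 of the 29 had an unadjusted p of 0.05 or less in edgeR. The called genes were Fgr and Fyn, kinases of the Src family, and Tyrobp, the adaptor DAP12 that TREM2 itself signals through. Fgr was at 3.93, 5.06 and 12.2 nRPKM at the lowest, median and highest in PS2APP;Trem2wt mice and at 1.44, 1.86 and 3.998 in PS2APP;Trem2ko mice, and all but 1 of the PS2APP;Trem2ko values lay under the PS2APP;Trem2wt range. Its log2 fold change was -1.43 (SE 0.29, edgeR adjusted p = 0.0165), and the call held in all 13 leave-one-out fits. Tyrobp was at 1542, 1821 and 2197 nRPKM in PS2APP;Trem2wt mice and at 1124, 1300 and 1635 in PS2APP;Trem2ko mice, again with 5 of 6 below every PS2APP;Trem2wt mouse. Its log2 fold change was -0.48 (SE 0.10, edgeR adjusted p = 0.0202), kept in 11 of 13 leave-one-out fits.

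Fyn was at 4.44, 6.62 and 9.88 nRPKM in PS2APP;Trem2wt mice and at 2.06, 4.02 and 5.08 in PS2APP;Trem2ko mice. It fell by 0.82 on the log2 scale (SE 0.20, edgeR adjusted p = 0.0452), a call kept in 2 of 13 leave-one-out fits and lost with sex as a covariate (edgeR adjusted p = 0.0631). Lyn and Src, kinases of the same family, had log2 fold changes of 0.12 and -0.07 and were not called. Next by p-value, and not called by edgeR, were Cbl, the ubiquitin ligase that brings about CSF1R degradation (-0.34, adjusted p = 0.111 in edgeR and 0.0287 in DESeq2, which called it), Map2k1 (-0.18) and Gab2 (0.19). Members of the phosphoinositide 3-kinase branch (Pik3ca, Pik3cb, Pik3cd, Pik3r1, Akt1 and Akt2) lay between -0.05 and 0.02. In females only, 0 of the 29 genes were called.

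Of the 16 JAK-STAT genes through which the beta chains and CSF3R signal, 0 were called, where 2.04% of all genes tested were called in either direction. Their median log2 fold change was 0.05. In edgeR, 0 of the 16 had an unadjusted p of 0.05 or less, and the lowest p-values were those of Stat5b (-0.18, SE 0.10), Jak3 (-0.22, SE 0.12) and Jak1 (0.10, SE 0.07). The feedback genes Cish and Socs2, targets of STAT5, had log2 fold changes of 0.41 (SE 0.46) and -0.28 (SE 0.31).

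Of 10 transcription factors of Csf1r and related myeloid genes, 0 were called over all mice, against 2.04% of all genes tested in either direction. Their median log2 fold change was -0.15, and 7 of the 10 values were negative. In edgeR, 4 of the 10 had an unadjusted p of 0.05 or less. Ets2, a factor of the ETS family, had values of 6.40, 7.26 and 9.61 nRPKM at the lowest, median and highest in PS2APP;Trem2wt mice and of 4.95, 5.80 and 6.34 in PS2APP;Trem2ko mice, with no overlap. A separation in this direction was shown by 1.22% of all genes tested. The log2 fold change of Ets2 was -0.37 (SE 0.10), with an adjusted p of 0.0773 from edgeR and of 0.0134 from DESeq2. Spi1, which encodes PU.1, the factor that drives Csf1r in myeloid cells, was at 102 ± 11.7 (SD, n = 7) and 86.4 ± 9.42 (SD, n = 6) nRPKM, and its log2 fold change was -0.24 (SE 0.09, edgeR adjusted p = 0.212). In females alone Spi1 had a log2 fold change of -0.36 and an adjusted p of 0.0483 from edgeR. Maf, with 0.29 (SE 0.12, edgeR adjusted p = 0.279), went the other way.

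Of 7 genes for shedding and trafficking of the receptor, 0 were called, against 2.04% of all genes tested in either direction. Their median log2 fold change was -0.04. Adam17, the protease that cleaves CSF1R from the cell surface, was at 67.4 ± 8.77 (SD, n = 7) and 61.1 ± 1.91 (SD, n = 6) nRPKM, and its log2 fold change was -0.15 (SE 0.08, edgeR adjusted p = 0.450). Ptprc and Timp3 followed, with -0.17 (SE 0.10) and -0.63 (SE 0.63).

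**Figure D4:**
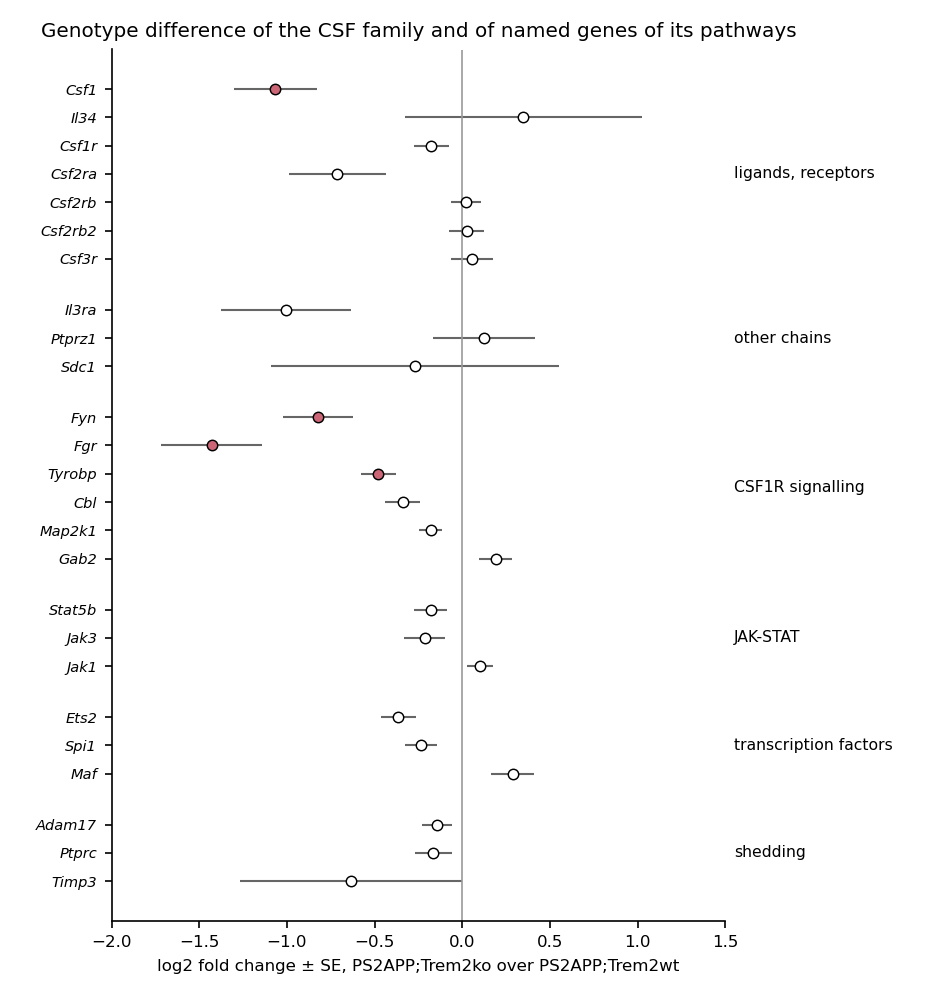
Log2 fold change with its SE (horizontal axis) of the 7 members and of the named genes of each pathway list, with filled points where the adjusted p from edgeR is 0.05 or less. Csf1 is filled among the members, and Fyn, Fgr and Tyrobp among the genes of CSF1R signalling.

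How the members varied among mice of 1 genotype was described by correlating log2 CPM over the 13 mice after each genotype's mean was taken off. Of 12175 genes with a mean count of 100 or more, those most like Csf1 were Rftn1 (Pearson r = 0.934), which encodes a lipid raft protein, Fam174a (r = 0.931) and Plekhb2 (r = 0.927), and none of these was called between the genotypes. Csf2ra was at rank 50 in likeness to Csf1 (r = 0.842). Csf1r, in contrast, was at rank 2751 (r = 0.323). Without PS2APP;Trem2wt mouse 3, a setting chosen after seeing the data, r with Csf1 was 0.687 for Csf2ra and 0.057 for Csf1r over 12 mice. In that setting it was 0.887 for Rftn1, 0.815 for Fam174a and 0.818 for Plekhb2, and the ranks were not computed again. Most like Csf1r were Unc93b1 (r = 0.942), a chaperone of endosomal Toll-like receptors, Atg9a (r = 0.940), an autophagy protein, and Slco2b1 (r = 0.939), a transporter, and Csf2rb was the member nearest to it (r = 0.783, rank 281). These values share libraries and depth and carry no test.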

How the data were processed

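RNA of sorted cells from 13 mice was sequenced as single-end reads. Per the authors' methods, the reads were cleaned of adapters, poor bases and ribosomal RNA and mapped with GSNAP (version not given in the sources used here) to GRCm38. The authors deposited, for each mouse, counts of reads per gene, not normalized, and nRPKM, which is RPKM scaled by size factors. Whether the counting used strand is not given in the sources used here. Gene names matched for 52403 of 52636 identifiers, and coordinates are from GENCODE on GRCm38.

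Counts were filtered with filterByExpr, scaled by TMM and tested with edgeR 4.0.16 in R 4.3.3 (glmQLFit, glmQLFTest, genotype as the only term). The SE is the log2 fold change divided by the square root of F. Alternatives were voom+limma (limma 3.58.1), which the study's methods use, DESeq2 1.42.0, RLE scaling, no filter, a minimum of 10 counts in 6 mice, females only, a term for sex, limma on deposited nRPKM (log2 with 0.1 or 1 added), a 2-fold threshold and leaving out each mouse. Ratios and marker sums were tested by two-sided exact permutation over all splits of the mice with a pseudocount of 0.1, with 1 and with CPM as alternatives (Python 3.11.15, scipy 1.17.1). On simulated counts for this comparison (16800 genes) edgeR recovered 65.3% of genes changed 2-fold and 88.0% of those changed 4-fold, and called 4 unchanged genes.

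Lists comprised the members, 5 pathway lists and 9 cell type marker lists. The text names all members, every called list gene, at most 3 further genes per list with the lowest p, and the 3 genes most like Csf1 and Csf1r. Lyn, Src, Cish, Socs2, Cx3cr1, Hmgxb3, the phosphoinositide 3-kinase genes and genes without counts were named after their values were seen. The values of 1 list gene are left out of the text. Members and lists were chosen with earlier results of these data known. Replicate numbers follow the order of the records and pair no samples. By the study's methods, mice were mostly handled from perfusion to sorting as pairs with 1 of each genotype, but the labels do not identify the pairs, so every test treats the mice as unpaired. Over the 36 pairs of mice of 1 genotype, the counts had a chi-square of 18.1 or more per degree of freedom, well over that of a library deposited again. Confidence intervals of fold changes come from edgeR and include the spread between mice, whereas the detection limit covers counting error only.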

Additional observations from a re-analysis of the deposited data

Results flagged for a closer look

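Of 40 groups of mice checked for a mouse that stands far from the others, 4 held one, and chance alone marks about 1 in 20 groups. Csf1 in PS2APP;Trem2wt mouse 3 was at 96.6 nRPKM, where the nearest of the others was at 50.3. The summed neutrophil markers of PS2APP;Trem2wt mouse 2 were at 264.8 nRPKM, against 102.3 in the nearest mouse. In the same mouse the summed endothelial cell markers were at 23.8 nRPKM, against 13.8. The summed monocyte markers of PS2APP;Trem2ko mouse 3 were at 19.2 nRPKM, against 9.09 in the nearest mouse. Without PS2APP;Trem2wt mouse 2 the log2 fold change of Csf1 was -1.06 (adjusted p = 0.0524 from edgeR), without PS2APP;Trem2wt mouse 3 it was -0.80 (adjusted p = 0.0138) and without PS2APP;Trem2ko mouse 3 it was -1.13 (adjusted p = 0.0389).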

How the results depend on the processing

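The log2 fold change of Csf1 kept its direction in all 22 alternative fits, between -1.15 and -0.80, and was called in 15 of them. In females only (exact permutation tests for ratios), where fewer mice were tested, it was -1.06 and not called, the difference in the log2 ratio of Csf1 to Csf1r was -0.74 (adjusted p = 0.127) and that of Il34 to Csf1 was 1.18 (adjusted p = 0.127), with 0 members and 0 CSF1R signalling genes called lower. With CPM in place of nRPKM, the ratio of Il34 to Csf1 differed by 1.39 (exact permutation test, adjusted p = 0.0808). DESeq2 called 4 CSF1R signalling genes lower, Cbl being the one added, and with sex as a covariate 2 were called. Among the transcription factors 1 was called lower under DESeq2 (Ets2) and 1 in females only (Spi1), against 0 in edgeR over all mice. Over all genes, 262 were called lower and 86 higher, against 526 and 325 under DESeq2, 173 and 79 in females only, 222 and 53 with no filter, and 191 to 284 and 42 to 107 when each mouse was left out.

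Leaving out each mouse gave 0 to 1 members called lower and 1 to 3 genes of CSF1R signalling, between -0.90 and -0.67 for the ratio of Csf1 to Csf1r, between 1.06 and 1.48 for Il34 to Csf1 and between -0.75 and -0.43 for Csf2ra to Csf2rb, which had an adjusted p of 0.0173 in the exact permutation test without PS2APP;Trem2wt mouse 1. The Il34 log2 fold change ranged from 0.099 to 0.65 and the neutrophil marker sum difference from -2.24 to -0.73. Members near 0 changed sign. Csf2rb ranged from -0.019 to 0.070, Csf2rb2 from -0.017 to 0.086, Csf3r from -0.029 to 0.12, the ratio of Csf2rb to Csf2rb2 from -0.047 to 0.046 and the monocyte marker sum from -0.38 to 0.20, and none of these had an adjusted p of 0.05 or less. With CPM in place of nRPKM the monocyte sum differed by 0.078. Under voom+limma Ptprz1 was at -0.17 and Sdc1 at 1.47. Timp3 was at 0.14 in females only, and the leave-one-out range was -0.14 to 0.29 for Ptprz1 and -0.86 to 0.29 for Timp3. The causes were not tested. No paired analysis was possible because the labels do not identify the pairs in which mice were processed. Low counts limit Il34 and Sdc1, with at most 66 and 76 per mouse.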
